A study of Mus musculus with 6 samples.

Results

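The galectins are small proteins that bind galactose-containing sugars on glycoproteins and glycolipids. The galectin genes of the mouse kidney were examined here as a family of 7 members, taken by gene symbol from the 55450 genes in the table of counts: Lgals1, Lgals2, Lgals3, Lgals4, Lgals8, Lgals9 and Lgals3bp. Lgals3bp encodes a glycoprotein that galectins bind rather than a galectin itself. The mice were wild-type C57BL/6J males, bought at 7 weeks of age and kept for 1 week before the experiment. The day-0 group, labelled as control with 20% PEG, had 3 sequenced mice. The day-21 group, also 3 sequenced mice, had been given adenine (0.16 g/kg) with potassium oxonate (2.4 g/kg) every day by gavage. This treatment is a model of hyperuricemia-related chronic kidney disease. PEG is labelled for day 0 only, and each group was killed on its own day. Vehicle and age at harvest therefore cannot be told apart from the treatment. Adenine given to mice is known to lead to crystals in the tubules, and oxonate blocks uricase, the enzyme that breaks down uric acid in mice. The model may therefore combine crystal injury with raised uric acid, and crystals were not examined here. RNA came from kidney tissue, and the kidneys had been divided for several uses. The part taken for RNA is not given in the sources used here. Cell types were mixed in it, so that fewer cells of a type and less RNA per cell cannot be told apart.

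Galectins are made in the cytosol and leave the cell without a signal peptide. Outside the cell they crosslink branched sugars on receptors and matrix proteins, and inside it they recognise sugars exposed on broken vesicles. The prototype galectins (galectin-1 and galectin-2) have a single sugar-binding domain and act as dimers, the chimera galectin-3 joins its domain to a flexible tail through which it forms oligomers, and the tandem-repeat galectins (galectin-4, galectin-8 and galectin-9) carry a pair of different domains on a single chain. In the kidney, galectin-3 is well known as a product of macrophages and of injured tubules and is linked to fibrosis.

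The 6 libraries held 10963849 to 14333311 counts, and 3 counts were taken as the detection floor of a library. Relative to the unscaled library totals, this floor corresponds to 0.209 to 0.274 CPM, where only counting error is covered. All other CPM values are counts relative to the scaled size of the library. On that scale, 3 counts of Lgals2 were 0.247 CPM in day-0 replicate 2 and 0.212 CPM in day-21 replicate 1. The groups were compared over 16592 genes with edgeR's quasi-likelihood test, and a gene was called a DEG when its adjusted p was under 0.05 and its fold over 1.5. Its p-values set the difference between the groups against the spread between these mice, which edgeR estimates with help from the other genes. Mitochondrially encoded genes took 9.39 to 9.86% of counts on day 0 and 3.82 to 4.42% on day 21, and the TMM factors used here were 0.852 to 0.886 on day 0 and 1.12 to 1.17 on day 21. With scaling by library size alone, the median log2 difference of all genes rose by 0.39 and the split of DEGs went from 3249 higher and 2572 lower to 5985 higher and 1338 lower. Markers of the kidney's own cells and of other cell types differed strongly between the days and are given with the galectins below.

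The members lie on 5 chromosomes (GRCm38, GENCODE release M21). Lgals1 (ENSMUSG00000068220.6, chr15:78926725-78930465, plus strand, 4 exons in its longest transcript) and Lgals2 (ENSMUSG00000043501.5, chr15:78850860-78855529, minus strand, 4 exons) are neighbours, 71195 bases apart. Lgals3 (ENSMUSG00000050335.17, chr14:47367751-47386160, plus strand) has 6 exons and Lgals4 (ENSMUSG00000053964.17, chr7:28833854-28841708, plus strand) has 10. Lgals8 (ENSMUSG00000057554.13, chr13:12439415-12464944, minus strand) and Lgals9 (ENSMUSG00000001123.15, chr11:78962974-78984946, minus strand) have 11 exons each, and Lgals3bp (ENSMUSG00000033880.11, chr11:118392751-118402092, minus strand) has 6. The longest reading frames follow the protein classes, with 135 codons for Lgals1 and 130 for Lgals2, 264 for Lgals3, 326, 325 and 353 for the tandem-repeat genes Lgals4, Lgals8 and Lgals9, and 577 for Lgals3bp. In Lgals8, 155 exon bases (4.20%) overlap Heatr1 on the opposite strand, and in Lgals2 38 exon bases (6.42%) overlap Cdc42ep1 on the opposite strand. The strand setting of the counting is not given in the sources used here, so those reads could not be assigned with certainty. Longest transcripts of the other members shared no 50-base word with another gene.

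The promoters of 4 members are shown because their mRNAs moved most or in opposite directions, as described below: Lgals3bp, Lgals3 and Lgals9, which rose, and Lgals4, which was lower. Each is the RefSeq window (GRCm38.p6) from 250 bases before to 50 bases after the gene's start in RefSeq. It is printed 5′ to 3′ on the gene's own strand, and capitals mark matches to a motif searched on both strands. RefSeq starts differ from the GENCODE positions above. Those of Lgals3 and of Lgals8, whose window is not shown, lie well inside the GENCODE spans of these genes. The windows are chr11:118401910-118402209 (minus strand) for Lgals3bp, chr14:47373610-47373909 (plus strand) for Lgals3, chr11:78984875-78985174 (minus strand) for Lgals9 and chr7:28833544-28833843 (plus strand) for Lgals4.
Lgals3bp: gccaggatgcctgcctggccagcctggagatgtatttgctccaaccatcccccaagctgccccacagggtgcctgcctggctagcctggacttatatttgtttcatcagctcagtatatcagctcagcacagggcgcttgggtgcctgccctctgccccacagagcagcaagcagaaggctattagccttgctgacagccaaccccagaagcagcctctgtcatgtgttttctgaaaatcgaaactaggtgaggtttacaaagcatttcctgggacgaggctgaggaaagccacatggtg
Lgals3: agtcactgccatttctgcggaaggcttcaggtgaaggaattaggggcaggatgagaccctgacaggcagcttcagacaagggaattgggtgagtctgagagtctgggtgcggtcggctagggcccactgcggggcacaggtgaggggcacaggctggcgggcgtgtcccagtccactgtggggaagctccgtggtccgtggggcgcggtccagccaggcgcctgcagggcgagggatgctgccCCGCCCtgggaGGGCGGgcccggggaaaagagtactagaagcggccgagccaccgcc
Lgals9: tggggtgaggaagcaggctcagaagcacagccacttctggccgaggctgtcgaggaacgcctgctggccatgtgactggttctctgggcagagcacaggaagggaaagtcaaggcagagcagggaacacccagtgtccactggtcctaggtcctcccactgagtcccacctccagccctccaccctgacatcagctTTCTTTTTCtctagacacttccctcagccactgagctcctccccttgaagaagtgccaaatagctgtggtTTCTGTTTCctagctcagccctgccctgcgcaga
Lgals4: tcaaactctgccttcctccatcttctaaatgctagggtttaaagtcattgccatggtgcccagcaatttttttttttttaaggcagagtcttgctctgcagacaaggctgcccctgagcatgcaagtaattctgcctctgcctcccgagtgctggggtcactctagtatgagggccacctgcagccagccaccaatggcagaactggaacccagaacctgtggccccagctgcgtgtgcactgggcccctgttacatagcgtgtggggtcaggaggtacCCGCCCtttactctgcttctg

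The motifs searched were the core of the interferon-stimulated response element (GAAANNGAA), present in 8.56% of all 32851 promoter windows in the table, the AP-1 site (TGANTCA, 7.81%), the TATA box (TATAAA, 13.6%) and the GC box (GGGCGG, 35.7%). No searched motif overlapped another in these windows. The Lgals9 window held the interferon core on the minus strand at 2 places, TTCTTTTTC with its first base 54 bases upstream of the start and TTCTGTTTC with its first base 16 bases downstream. The Lgals3 window held a GC box on each strand around its RefSeq start, 7 bases upstream and 4 bases downstream. That of Lgals4 held one on the minus strand 29 bases downstream. The windows of Lgals3bp, Lgals2 and Lgals8 held no exact match to the 4 motifs, and near matches were not searched. Lgals1 had no window in the table of promoters and was not searched. Guanine and cytosine made up 67% of the Lgals3 window, with 18 CpG, against a median of 52.67% and 7 CpG over all windows, and 54 to 58% of those of Lgals3bp, Lgals4 and Lgals9. A match in this search is a description of the letters and not a bound site.

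In CPM, most of the 7 genes were higher in the day-21 kidneys, and Lgals3bp, which is not itself a galectin, is among them. Of the 7 members, 6 passed the filter on low counts, and 4 of these were DEGs higher on day 21 (Lgals1, Lgals3, Lgals9 and Lgals3bp), 1 was a DEG lower on day 21 (Lgals4) and 1 (Lgals8) reached the adjusted p but not the fold. The background was high: 35.1% of all genes tested were DEGs, 19.6% higher and 15.5% lower. The median log2 difference was 1.78 over the 6 members against 0.03 over all genes tested. In 5 members all 3 day-21 mice lay above all 3 day-0 mice in CPM, as in 30.7% of all genes tested, and in 1 they lay below, as in 26.4%. The exact two-sided permutation test over mice gave p = 0.1, the smallest that 3 mice against 3 allow, for each of those 6 members.

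**Figure D1:**
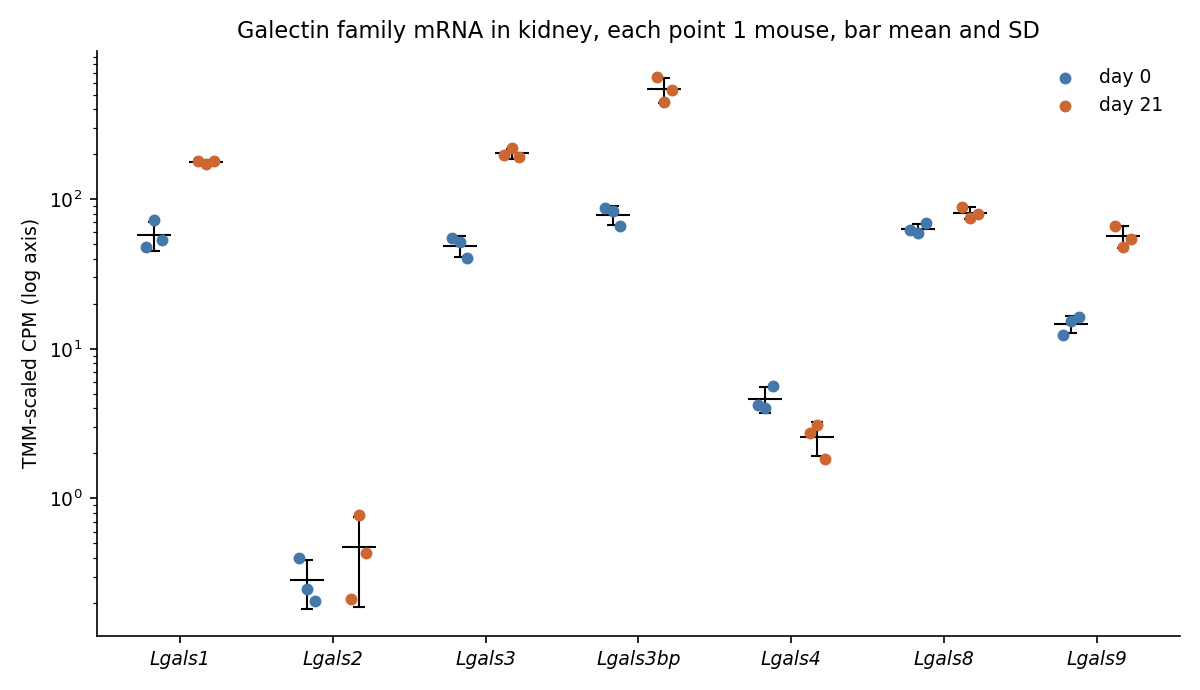
CPM of the 7 genes in each of the 6 mice on a log axis, with a point for each mouse (blue for day 0, orange for day 21), a line at the group mean and bars of 1 SD. The day-21 mice lie above the day-0 mice for Lgals1, Lgals3, Lgals3bp, Lgals8 and Lgals9, below them for Lgals4, and overlap with them for Lgals2.

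Of the prototype galectins, Lgals1, whose product is abundant in stromal cells and can trigger the death of activated T cells, had 47.9, 72.2 and 53.6 CPM on day 0 against 181, 172 and 181 CPM on day 21. The day-21 mice were close to each other and all above the day-0 mice, among which replicate 2 was highest. The group means were 57.9 ± 12.7 and 178 ± 5.41 CPM (SD, n = 3 each), and the log2 difference was 1.62 (SE 0.15, adjusted p = 1.9e-05 by edgeR), a 3.07-fold rise. Its neighbour Lgals2 was close to the detection floor, with 4, 3 and 2 counts in the day-0 group against 3, 13 and 7 in the day-21 group. The groups overlapped, the gene did not pass the filter, and a fit without the filter gave an adjusted p of 0.601 by edgeR over 26914 genes, so at this depth no difference could be detected.

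The chimera galectin Lgals3, also known as the macrophage antigen Mac-2, was at 54.7, 51.8 and 40.2 CPM on day 0 and at 197, 220 and 190 CPM on day 21. All day-21 mice were above all day-0 mice by a wide margin. The means were 48.9 ± 7.70 and 202 ± 15.5 CPM (SD, n = 3 each), with a log2 difference of 2.05 (SE 0.14, adjusted p = 3.0e-06 by edgeR) and a fold of 4.13. Lgals3bp, a secreted glycoprotein of the scavenger receptor cysteine-rich family that binds galectin-3 and is known to be induced by interferon, moved furthest. It was at 87.6, 83.2 and 66.2 CPM on day 0 and at 653, 445 and 539 CPM on day 21, and even the lowest day-21 mouse, replicate 2, was far above the highest day-0 mouse. The means were 79.0 ± 11.3 and 546 ± 104 CPM (SD, n = 3 each), and the log2 difference was 2.79 (SE 0.17, adjusted p = 2.1e-06 by edgeR), a 6.91-fold rise. By log2 difference Lgals3bp ranked 507 among the 16592 genes tested, Lgals3 994, Lgals9 1079 and Lgals1 1411.

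The tandem-repeat galectins went separate ways. Lgals9, whose product binds the T-cell receptor Tim-3, was at 12.4, 15.2 and 16.3 CPM on day 0 and at 66.6, 47.9 and 54.6 CPM on day 21. The groups were well apart, with means of 14.7 ± 1.99 and 56.4 ± 9.46 CPM (SD, n = 3 each), a log2 difference of 1.94 (SE 0.16, adjusted p = 9.7e-06 by edgeR) and a fold of 3.84. Lgals8, whose product detects damaged endosomes and lysosomes, was already expressed on day 0, at 62.2, 59.7 and 68.9 CPM, and was at 89.4, 74.5 and 80.1 CPM on day 21. The day-21 mice were all above the day-0 mice, but the distance was small. The log2 difference was 0.35 (SE 0.11, 95% interval 0.10 to 0.61, adjusted p = 0.0266 by edgeR), a fold of 1.28 that lies under the threshold for a DEG. Scaling by library size alone gave 0.74 (adjusted p = 0.000379), and Lgals8 was then called higher. Leaving out single mice went the other way in most fits. Its adjusted p by edgeR was 0.0637, 0.0691 and 0.0226 without day-0 replicates 1, 2 and 3. It was 0.114, 0.0316 and 0.0749 without day-21 replicates 1, 2 and 3. Heatr1, which is named because it shares exon bases with Lgals8, differed by 0.15 on the log2 scale (SE 0.12, adjusted p = 0.356 by edgeR).

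Lgals4, best known from the epithelium of the gut, was the only member tested whose level was lower on day 21. It was scarce throughout, with 42, 49 and 55 counts in day-0 kidneys against 39, 52 and 30 in day-21 kidneys, or 4.21, 4.04 and 5.67 CPM against 2.76, 3.10 and 1.84 CPM. The raw counts overlapped, and the groups parted only after scaling. The log2 difference was -0.85 (SE 0.30, 95% interval -1.52 to -0.18, adjusted p = 0.041 by edgeR). This call was fragile: the adjusted p was 0.0524 without day-0 replicate 2, 0.116 without day-0 replicate 3, 0.0803 without day-21 replicate 1 and 0.159 without day-21 replicate 3, and scaling by library size alone gave a log2 difference of -0.46 (adjusted p = 0.221). Among 5 markers of intestinal epithelium, Cdx2 and Fabp2 had no count in any mouse. The only marker of that list to pass the filter, the cadherin Cdh17, went the other way, with counts of 0, 1 and 0 in the day-0 group against 13, 37 and 30 in the day-21 group (adjusted p = 0.000556 by edgeR).

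**Figure D2:**
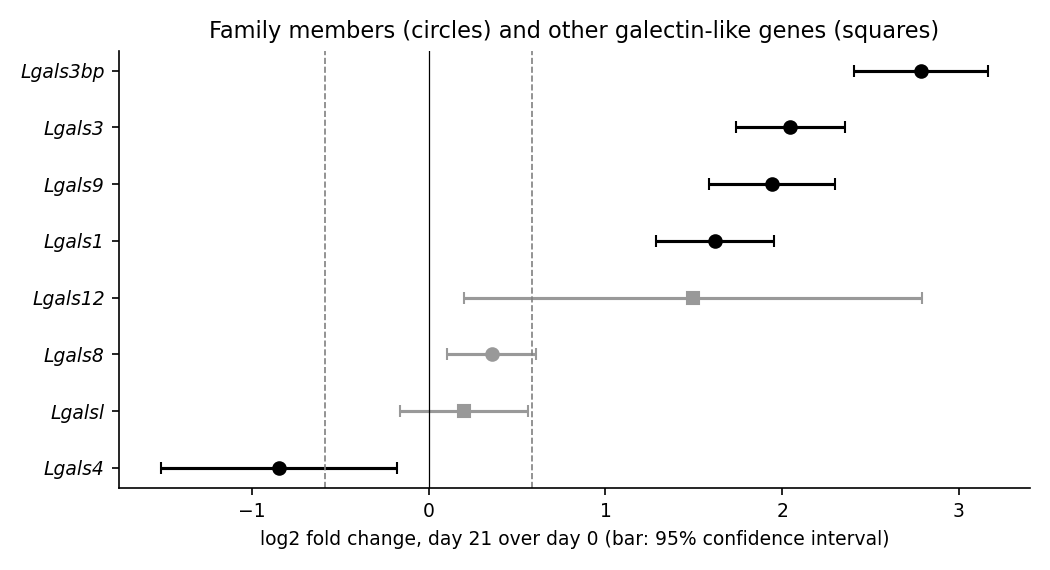
Log2 difference (day 21 over day 0) of the 6 tested members (circles) and of the galectin-like genes Lgals12 and Lgalsl (squares) with its 95% interval from edgeR, black for DEGs and grey otherwise, with dashed lines at a fold of 1.5 in either direction. Lgals3bp, Lgals3, Lgals9 and Lgals1 lie far to the right, the point of Lgals8 lies between 0 and the dashed line, and the interval of Lgals4 reaches from -1.52 to -0.18.

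Levels of different genes can be compared only per length, so CPM was divided by kilobases of exon. On day 0 Lgals1 led with 64.1 ± 14.1 CPM per kb (SD, n = 3), followed by Lgals3bp with 27.7 ± 3.98 and Lgals3 with 26.3 ± 4.15, whose ranges over mice overlapped. Lgals8 followed with 17.2 ± 1.30, Lgals9 with 6.86 ± 0.932, Lgals4 with 2.00 ± 0.387 and Lgals2 with 0.481 ± 0.174 CPM per kb, and the ranges of these neighbours did not overlap. The order was different on day 21. Lgals3bp (192 ± 36.6 CPM per kb) then had a range overlapping that of Lgals1 (197 ± 5.99) and stood clear of Lgals3 (109 ± 8.33). Lgals9 (26.4 ± 4.43 CPM per kb) then ranked before Lgals8 (22.1 ± 2.04) and was above it within each mouse, although their ranges over mice overlapped. The ranges of Lgals4 (1.11 ± 0.282) and Lgals2 (0.797 ± 0.480) overlapped too.

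The 7 genes together went from 145 ± 15.6 to 548 ± 41.8 CPM per kb (SD, n = 3 each), a 3.79-fold rise in which the groups did not overlap. Without Lgals3bp, which is not itself a galectin, the sum went from 117 ± 14.2 to 356 ± 6.30 CPM per kb (SD, n = 3 each). That rise was 3.04-fold, also without overlap. As shares of the sum of all 7 genes, Lgals3bp took 22.2, 18.0 and 17.4% on day 0 against 38.7, 30.7 and 35.0% on day 21. Its mean share was thus higher by 15.6 percentage points, with no overlap. Lgals8 took 12.2, 9.95 and 14.0% on day 0 and 4.09, 3.96 and 4.01% on day 21, a change in mean share of -8.03 points, although its own CPM was higher on day 21. The share of Lgals1 went from 44.0 ± 5.45 to 36.1 ± 1.94%, that of Lgals4 from 1.41 ± 0.390 to 0.203 ± 0.0580% and that of Lgals2 from 0.336 ± 0.133 to 0.150 ± 0.0992% (SD, n = 3 each). Groups did not overlap for these 5 shares, and the exact two-sided permutation test gave p = 0.1 for each, the smallest it allows. For Lgals2 the groups were barely apart, with 0.257% in day-0 replicate 2 and in day-21 replicate 2 from 3 and 13 counts, and its own level was not lower on day 21. The shares of Lgals3 (18.2 ± 2.69 and 20.0 ± 2.81%) and Lgals9 (4.77 ± 0.825 and 4.79 ± 0.434%) overlapped between groups, with p = 0.5 and p = 0.9 by the same exact test. Shares depend on each other: with Lgals3bp left out of the sum, the share of Lgals1 was 0.95 points higher on day 21 instead of lower.

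**Figure D3:**
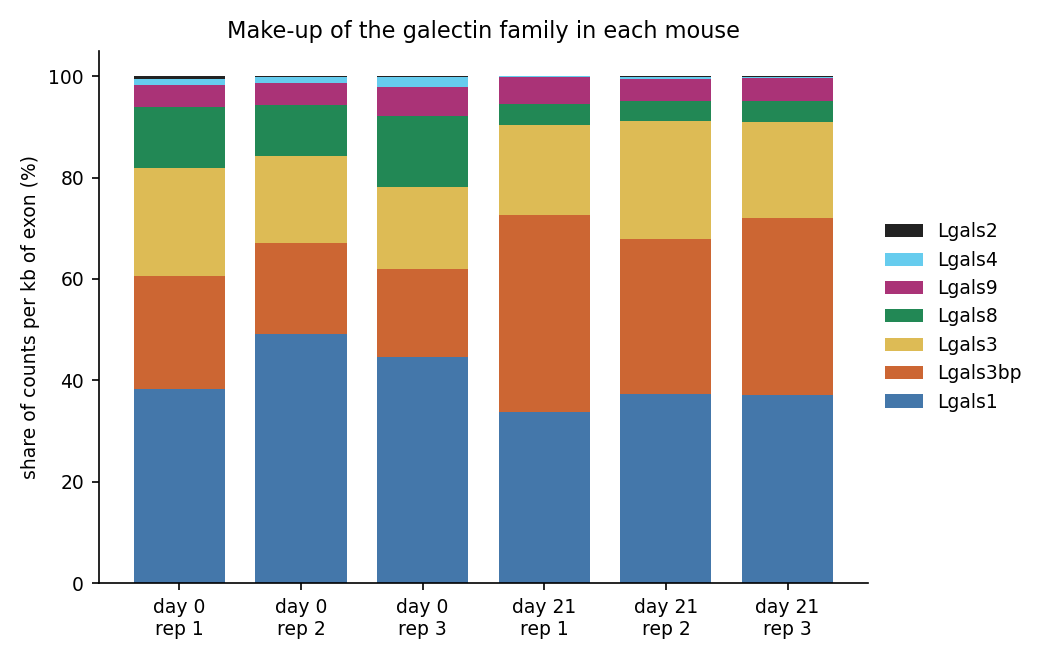
Share of the family's counts per kb of exon taken by each member in each of the 6 mice. The band of Lgals3bp is wider in the 3 day-21 mice (30.7 to 38.7%) than in the 3 day-0 mice (17.4 to 22.2%), and that of Lgals8 is narrower.

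Expressed through the whole profile over the 6 mice, the genes nearest to the 5 members with a mean of at least 50 counts (Lgals2 and Lgals4 were left out) were found by the root mean square difference of centred log2 CPM among 11888 protein-coding genes. For Lgals3 they were Bcl3 (0.0680) and Runx3 (0.0880), and for Lgals1 Csf2ra (0.0912) and Rfc3 (0.118). For Lgals3bp they were Ifit3b (0.115) and Tlr13 (0.158), and for Lgals9 Pknox2 (0.10) and Ube2l6 (0.101). For Lgals8, whose own log2 difference was small, they were Brd8 (0.0322) and Dcaf13 (0.0344). The distances were not compared between members. These distances are a description over 6 mice that fall into the same 2 groups for every gene.

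Other galectin-like genes gave no DEG among the 2 of them that passed the filter. Lgals12, a galectin of fat cells, had 2, 4 and 9 counts in day-0 kidneys against 21, 14 and 29 in day-21 kidneys (2.82-fold, adjusted p = 0.0583 by edgeR). Its day-0 replicate 3 was also the mouse with the most counts of the fat-cell gene Adipoq, with 0, 14 and 51 counts against 0, 0 and 2 on day 21, and without it 1 galectin-like gene was called higher. The role of fat tissue in this value was not tested. Lgalsl, which encodes a galectin-related protein without known sugar binding, was at 17.8 ± 3.45 CPM on day 0 and 20.4 ± 1.27 on day 21 (SD, n = 3 each), a log2 difference of 0.20 (SE 0.16, adjusted p = 0.348 by edgeR). Lgals7 had at most 5 counts in any mouse and Grifin had none. Lgals6 and Lgalsl2 were not analysed here.

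Proteins that galectins bind or work with changed in both directions. Of 25 listed genes, 24 were tested, 10 were DEGs higher on day 21, 5 were lower and 9 were not DEGs, against the 19.6% and 15.5% of all genes. Their median log2 difference was 0.51. By library size alone, 14 were called higher and 2 lower. The largest rises were those of Cd44, the hyaluronan receptor, from 3.10 ± 0.676 to 66.4 ± 16.2 CPM (log2 difference 4.41, SE 0.23, adjusted p = 1.06e-06), the myeloid integrin subunit Itgam (4.25, SE 0.42, adjusted p = 2.54e-05) and Ptprc, which encodes the leukocyte antigen CD45 (2.52, SE 0.14, adjusted p = 1.38e-06). The largest falls were those of the VEGF receptor Kdr (log2 difference -1.33, SE 0.16, adjusted p = 0.00011), Mertk, a receptor for uptake of dead cells (-1.06, SE 0.13, adjusted p = 0.000123), and the transferrin receptor Tfrc (-0.84, SE 0.16, adjusted p = 0.00176). All were tested by edgeR. Chosen after their values were seen because they pair with members above, Havcr2, which encodes the galectin-9 receptor Tim-3, had 13, 9 and 8 counts against 33, 89 and 50 (log2 difference 1.90, SE 0.43), and Lag3, a T-cell receptor that binds galectin-3, had 10, 8 and 2 counts against 48, 47 and 50 (log2 difference 2.28, SE 0.46). Both were called higher. Calcoco2, also named after its values were seen, had no count in any mouse, below the floor of 3 counts per library. Its human counterpart encodes the autophagy receptor that galectin-8 recruits to damaged vesicles. Whether the mouse gene has this role was not tested.

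Enzymes that build, branch or cap the sugars that galectins bind gave DEGs in both directions. Of 17 genes tested, 3 were DEGs higher on day 21 (19.6% of all genes tested were), 6 were lower (15.5% of all genes) and 8 were not DEGs, so the count of higher enzymes was near the background. The median log2 difference was -0.23. St6gal1, which adds the α2,6-linked sialic acid that blocks binding of several galectins, rose from 18.6 ± 1.53 to 71.0 ± 13 CPM (log2 difference 1.93, SE 0.15, adjusted p = 7.34e-06 by edgeR). The sialyltransferases St3gal1 and St3gal4 rose less, by 0.64 (adjusted p = 0.00332) and 0.61 (adjusted p = 0.00817) on the log2 scale. Mgat3, which adds the bisecting N-acetylglucosamine, fell by 1.37 on the log2 scale, from 174 ± 38.5 to 67.3 ± 7.21 CPM (adjusted p = 9.77e-05 by edgeR). The galactosyltransferase B4galt5 (-1.30, adjusted p = 2.35e-05) and the branching enzyme Gcnt1 (-0.97, adjusted p = 0.000267) also fell. The branching enzyme Mgat5, whose products are preferred ligands of galectin-3 and which was named after its value was seen, fell by 0.60 on the log2 scale (adjusted p = 0.00119). The balance of directions rests on the scaling: by library size alone, 5 of these enzymes were called higher and 2 lower.

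**Figure D4:**
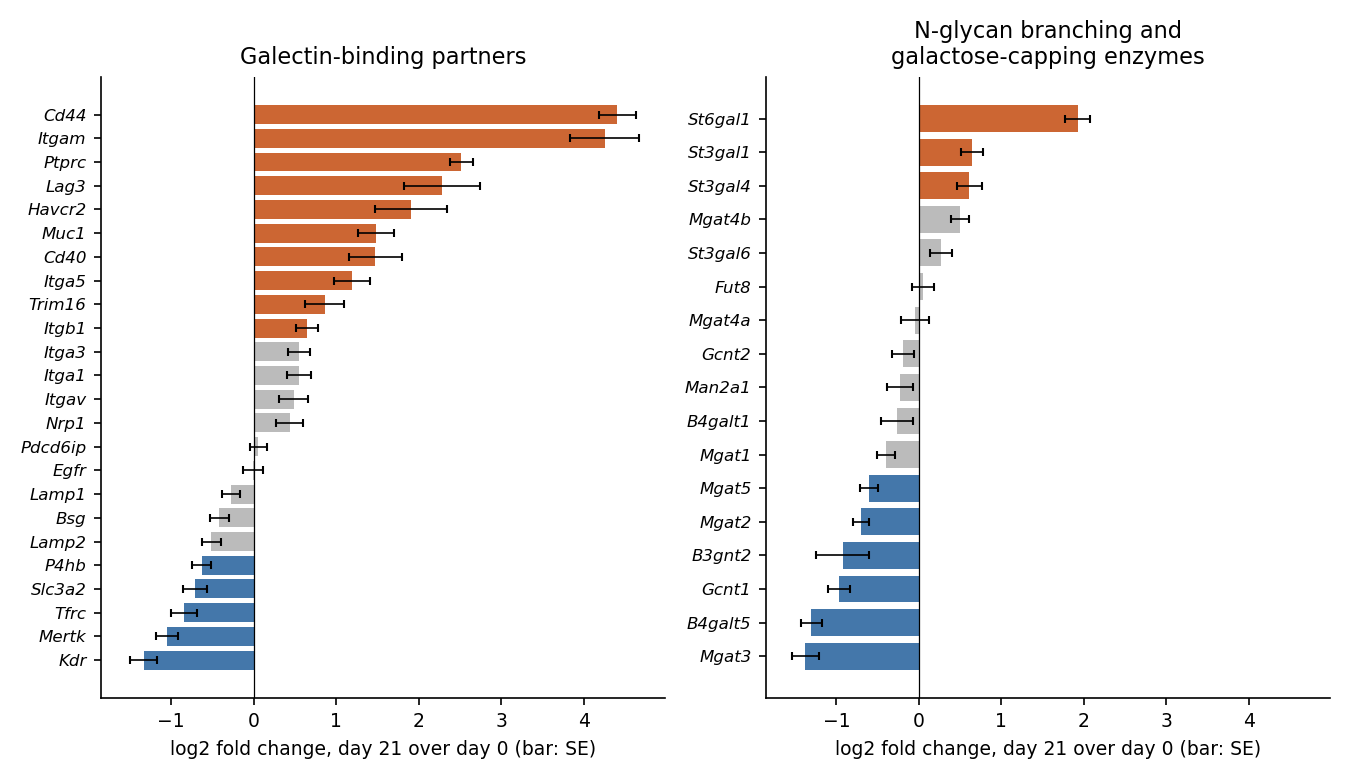
Log2 difference (day 21 over day 0, bars, with SE) of the tested galectin-binding partners and sugar-modifying enzymes, orange for DEGs that were higher, blue for DEGs that were lower and grey for genes not called. Cd44 and Itgam are the longest bars to the right and Mgat3 and Kdr the longest to the left.

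Cell type markers also differed between the days, in both directions. Their counts are to be read against the 19.6% of all genes tested that were called higher and the 15.5% called lower. All 8 macrophage markers were higher, with a summed level of 165 to 212 CPM on day 0 and 934 to 1257 CPM on day 21, as were all 6 T-cell markers (4.81 to 10.1 against 25.7 to 29.9 CPM), all 8 markers of fibroblasts and myofibroblasts (274 to 400 against 1209 to 2273 CPM) and all 4 of injured tubule (8.86 to 32.8 against 1433 to 1867 CPM). In the opposite direction, all 6 proximal tubule markers were lower (9267 to 10113 against 1784 to 2213 CPM), as were all 3 of podocytes and all 4 of red blood cells. Fewer markers were lower for the thick ascending limb (2 of 3), the distal convoluted tubule (2 of 3), principal cells (2 of 5), intercalated cells (3 of 5), endothelium (1 of 5) and urothelium (1 of 5), the last pair being near the background, and both of the neutrophil markers tested were lower. Of the dendritic cell markers 1 of 4 was higher, while the 1 tested marker each of B cells and of adipocytes was not a DEG. Which of these cells carried the galectin mRNA, and how far their numbers account for its levels, was not tested.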

How the data were processed

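Kidney mRNA of 3 day-0 and 3 day-21 mice was analysed, grouped by each sample's label. The authors extracted total RNA, prepared TruSeq libraries, sequenced paired-end reads of 150 bases and deposited raw counts of each gene and mouse, not normalized. The submitters' processing notes name TopHat and mm10. The counting program and its strand setting are not given in the sources used here. All identifiers matched GENCODE M21 (GRCm38), which supplied exons and positions.

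In R 4.3.3, genes were filtered with filterByExpr (minimum count 10, minimum total 15), libraries were scaled by TMM, and the days were compared with edgeR 4.0.16 (quasi-likelihood test). P-values were adjusted by Benjamini-Hochberg over 16592 genes. CPM used TMM-scaled library sizes, except for the detection floor, which used unscaled totals. Shares used CPM per kilobase of merged exons. Levels and shares were compared by exact two-sided permutation over mice, on log2(CPM + 1) for levels. Python 3.11.15 was used for shares, motifs and figures. The fits were also run on simulated counts in which a small part of the genes changed. Those counts did not imitate the difference in scaling between these groups.

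The members and lists were chosen with earlier results of these data known. Named genes are the members, the other galectin-like genes and the 2 nearest profiles of members with a mean of at least 50 counts. Of partners and enzymes, the 3 largest rises and falls of each list are named, among DEGs with that mean whose groups did not overlap. Heatr1 is named for its overlap with Lgals8, and a few other genes were named after their values were seen. Cell type markers are given mostly as counts and sums, and those named (Cdx2, Fabp2, Cdh17 and Adipoq) are a choice from their lists. Alternatives were RLE, upper-quartile or library-size scaling, no filter or a mean of at least 50 counts, DESeq2 1.42.0, limma-voom (limma 3.58.1), 2 other thresholds, a replicate block, leaving out each mouse, and removal of mitochondrially encoded genes or of the 20 highest genes. For shares they were transcript length, exon bases of no other gene, and the sum without Lgals3bp. No library was a duplicate of another in its group (chi-square per gene 5.53 to 18.0).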

Additional observations from a re-analysis of the deposited data

How the results depend on the processing

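Lgals1, Lgals3, Lgals3bp and Lgals9 kept their direction and call under all 18 alternatives, with log2 differences of 1.48 to 2.01, 1.91 to 2.44, 2.64 to 3.17 and 1.81 to 2.33. The call of Lgals4 was less stable. The number of members called lower was 0 with upper-quartile scaling (log2 difference of Lgals4 -0.76, adjusted p = 0.0634), with library size alone, with a mean of at least 50 counts, which removes Lgals4, and with a stricter threshold (adjusted p under 0.01, fold over 2), and it was 0 to 1 when single mice were left out. Over all alternatives the adjusted p of Lgals4 ran from 0.0303 to 0.221 and that of Lgals8 from 0.000379 to 0.114. Partners called lower numbered 2 and enzymes called lower 2, both with library size alone and at the stricter threshold. Enzymes called higher numbered 5 with library size alone, 1 at the stricter threshold and 1 to 3 with a mouse left out, the 1 being without day-0 replicate 1. Other galectin-like genes called higher numbered 1 with upper-quartile scaling, 2 with library size alone and 0 to 1 with a mouse left out. With longest-transcript lengths the share of Lgals4 changed by -1.65 points. Without Lgals3bp in the sum, the share of Lgals1 changed by 0.95 points, that of Lgals3 by 7.92 and that of Lgals9 by 1.5.

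With the replicate number as a block, the number of members called lower was 0 (Lgals4 -0.86, adjusted p = 0.0645), and no other member's call changed. The labels do not say that the numbers pair mice. The deviations of same-numbered mice correlated at -0.019, 0.165 and 0.0896, and not every mouse correlated best with its own number. With so few mice these values cannot decide whether a pairing exists. With 3 mice a group, depth limits Lgals2 and Lgals4 most, and exact tests could not go below p = 0.1.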

Other observations

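The ratio of Lgals3bp to Lgals3, in CPM per kb, was nearly the same in the 3 day-0 mice, at 1.04, 1.05 and 1.07, and was 2.16, 1.32 and 1.85 in the 3 day-21 mice. The groups did not overlap (exact two-sided permutation p = 0.1, the smallest it allows, among 6 sums and ratios computed), and the SD over mice was 0.0165 on day 0 and 0.426 on day 21. The ratio of Lgals8 to Lgals9 went from 2.54 ± 0.323 to 0.843 ± 0.0618 (SD, n = 3 each, exact p = 0.1), without overlap. The ratios of Lgals1 to Lgals3 (2.47 ± 0.582 and 1.82 ± 0.186, exact p = 0.3) and of Lgals9 to Lgals3 (0.268 ± 0.0782 and 0.244 ± 0.0524, exact p = 0.7) overlapped between the days.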
